A study of Homo sapiens with 5 samples.

Results

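The genes described here are 10 sensors and transcription factors of the unfolded protein response, taken by name from 19775 genes measured on 5 Affymetrix arrays. The cells were PC-3, a human line from a bone metastasis of a prostate cancer that grows without androgen. All probe sets annotated with 1 of these symbols and no other were used, which gave 24 of the 41097 probe sets that carry a single symbol. The arrays held PC-3 cells with a first or a second short hairpin RNA against TRIB1 (shTRIB1-1 and shTRIB1-2, labelled as TRIB1 depletion), PC-3 cells with a control hairpin against GFP (shGFP), PC-3 cells from spheroid culture and PC-3 cells from normal 2D culture, 1 array each. No group received a treatment, and the labels name no promoter, clone, vector or selection for the hairpin lines. A single growth protocol, in 10 cm dishes, is given for every sample, the spheroids included. The 5 arrays hold different lines or growth formats and so separate cultures, and no line or growth format has a second array. The study compared spheroid with 2D growth and TRIB1 hairpins with the GFP hairpin.

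The unfolded protein response adjusts the endoplasmic reticulum (ER) to its load of newly made protein. It starts from 3 sensors in the ER membrane. IRE1, encoded by ERN1, is a kinase and ribonuclease that splices the messenger RNA of XBP1 so that an active transcription factor is made. PERK, encoded by EIF2AK3, phosphorylates the initiation factor eIF2 alpha, which slows translation and favours that of ATF4. ATF6 and its paralogue ATF6B are transcription factors held in the ER membrane, which move to the Golgi under stress and are cut free there by the site-1 protease (MBTPS1) and the site-2 protease. CREB3, CREB3L1 and CREB3L2 are membrane-bound factors of the same basic leucine zipper kind and are released in the same way. Wolframin (WFS1) is an ER membrane protein that helps to degrade ATF6. Secretory cancer cells, those of the prostate among them, make use of this pathway. The arrays measure messenger RNA, so splicing of XBP1, phosphorylation of IRE1 or PERK and cleavage of ATF6 were not measured.

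Promoters of 4 members are shown because the main spheroid results concern ERN1, XBP1 and ATF6, and because WFS1 serves as a member with nearly equal levels in spheroid and 2D culture. Each is the stretch of 250 bases before the RefSeq transcription start (GRCh38.p14), 5′ to 3′ on the gene's own strand. Capitals mark CCAAT boxes and CCACG half-sites on either strand. The sequences are those of chr17:64130145-64130394 (minus strand, ERN1), chr22:28800570-28800819 (minus strand, XBP1), chr1:161766070-161766319 (plus strand, ATF6) and chr4:6269600-6269849 (plus strand, WFS1), all next to the outermost annotated start of the gene. RefSeq also lists a second start of XBP1, which is not shown.
ERN1: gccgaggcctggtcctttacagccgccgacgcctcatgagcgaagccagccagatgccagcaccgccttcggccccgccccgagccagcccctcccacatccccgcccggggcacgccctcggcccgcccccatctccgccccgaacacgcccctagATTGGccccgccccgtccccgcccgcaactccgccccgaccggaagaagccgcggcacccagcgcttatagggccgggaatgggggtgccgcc
XBP1: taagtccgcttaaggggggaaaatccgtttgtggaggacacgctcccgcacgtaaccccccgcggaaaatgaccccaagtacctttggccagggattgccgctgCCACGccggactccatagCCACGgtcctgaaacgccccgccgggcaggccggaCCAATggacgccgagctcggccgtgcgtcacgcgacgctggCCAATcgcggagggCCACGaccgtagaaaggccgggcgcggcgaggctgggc
ATF6: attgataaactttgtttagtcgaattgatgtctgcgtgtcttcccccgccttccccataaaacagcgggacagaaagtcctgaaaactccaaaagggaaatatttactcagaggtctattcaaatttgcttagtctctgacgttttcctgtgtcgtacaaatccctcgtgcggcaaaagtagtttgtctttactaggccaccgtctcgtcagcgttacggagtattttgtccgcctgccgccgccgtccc
WFS1: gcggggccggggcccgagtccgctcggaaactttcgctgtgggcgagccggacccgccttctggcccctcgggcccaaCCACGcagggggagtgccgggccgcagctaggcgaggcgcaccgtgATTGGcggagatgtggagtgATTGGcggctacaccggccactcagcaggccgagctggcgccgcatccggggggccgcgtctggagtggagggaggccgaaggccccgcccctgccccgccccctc

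The ER stress response element (ERSE), to which ATF6 binds together with the factor NF-Y, joins these parts as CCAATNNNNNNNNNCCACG. In a search of both strands of all 35116 RefSeq windows of 300 bases (250 before to 50 after a start), 0.0769% of windows held it. The 10 members have 12 windows, with 2 starts each for XBP1 and CREB3L2. The XBP1 window shown held the ERSE, with its first base 52 bases before the start. The other XBP1 window, at a start inside the gene (chr22:28800028-28800327), held no ERSE and no CCAAT box. No member window held the related element ERSE-II (ATTGGNCCACG, 0.0541% of all windows) or the element TGACGTGG known as UPRE (0.729%). A cyclic AMP response element (TGACGTCA, 1.85%) lay 179 bases before a start of CREB3L2, and the C/EBP-ATF response element TGATGNAA (3.62%) began 17 bases after another start of CREB3L2. The CCAAT box alone was present in 6 of 12 member windows and in 34.6% of all windows, and the half-site CCACG in 7 of 12 and 38.1%. The core ACGT, which the UPRE and the cyclic AMP element contain, was present in 6 of 12 and 33.3%. The ERSE contains the CCAAT box and the half-site, so these counts overlap. A match is a description of the letters and not evidence of a bound site.

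A level below is the log2 of the intensity that the authors made with RMA, a difference is a difference of levels, and a difference of 1 is a 2-fold difference. Of the 24 probe sets, 17 reached a level of 6 on at least 1 array, and each of the 10 genes had at least 1 such probe set. Where a gene is named without a probe set, its value is that of the probe set with the highest mean level. Epithelial markers of the line were high, with EPCAM between 11.28 and 12.23, KRT18 between 12.48 and 13.19 and KRT8 between 9.39 and 11.01 over the arrays. TRIB1 itself was at 11.91 and 11.76 with the hairpins labelled shTRIB1-1 and shTRIB1-2, against 11.97 on the shGFP array. On the spheroid and 2D arrays it was lower than on every hairpin array, at 11.23 and 11.04. The shTRIB1 arrays therefore show no clear loss of the TRIB1 messenger RNA, and the hairpin arrays are named by their labels throughout. The ratio of 5′ to 3′ actin signal was 0.445 and 0.442 on the shTRIB1 arrays and 0.436 on the shGFP array, against 0.131 on the spheroid array and 0.184 on the 2D array. For GAPDH this ratio was 0.935 and 0.929 on the shTRIB1 arrays and 0.944 on the shGFP array, against 0.763 on the spheroid array and 0.895 on the 2D array. The actin ratio thus separates hairpin from non-hairpin arrays, and both ratios were lowest on the spheroid array. Their part in the differences below, that of spheroid and 2D included, was not tested. Over 10522 genes, the median absolute difference between the 2 shTRIB1 arrays was 0.202, and its root mean square was 0.481. That spread, which includes true differences between the hairpins, is the only one available here, since spheroid, 2D and shGFP have 1 array each.

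**Figure D1:**
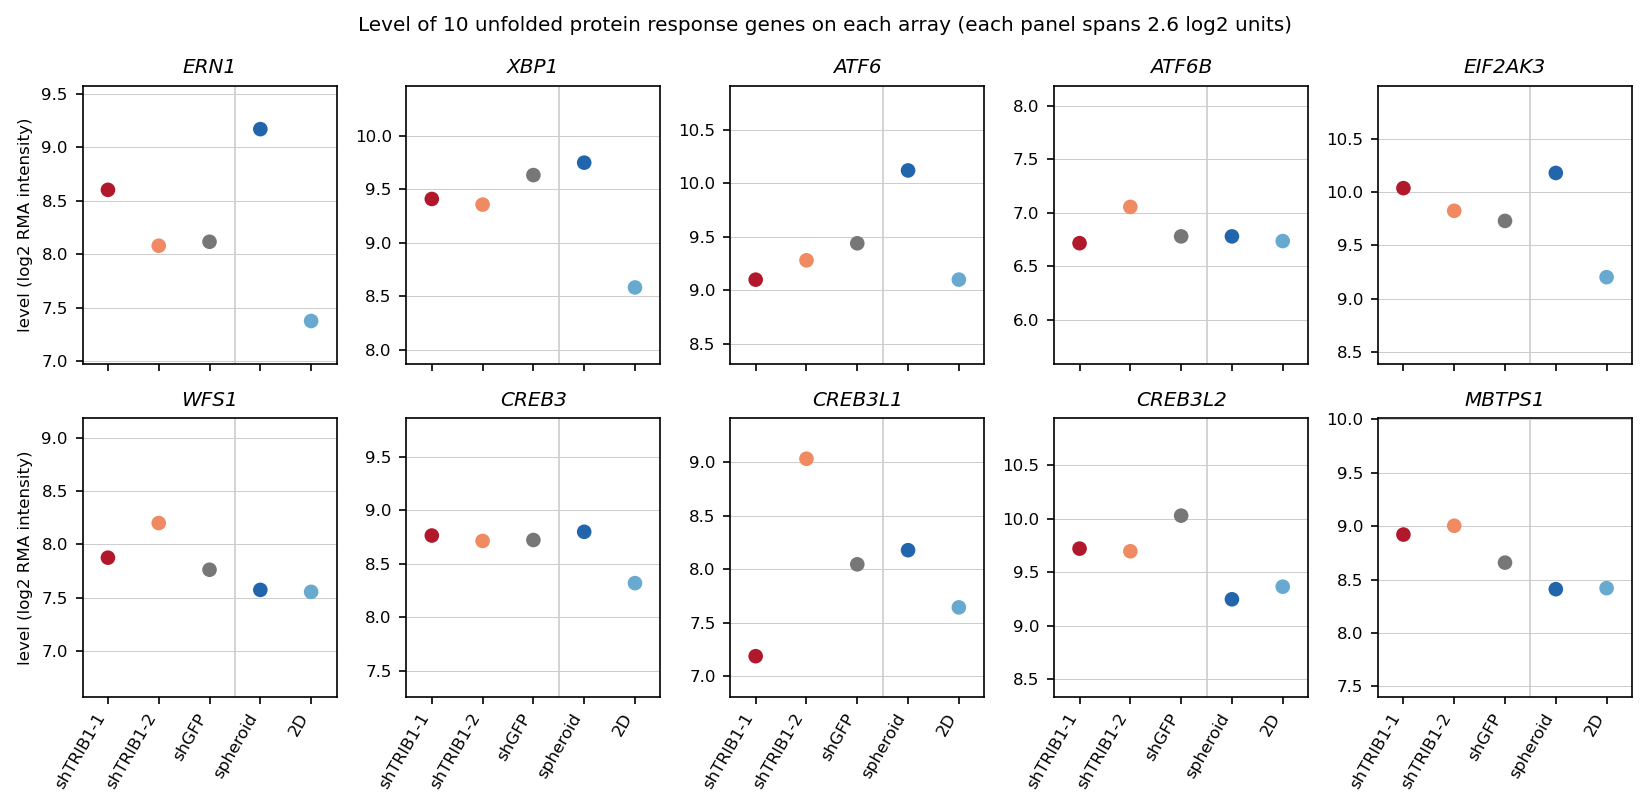
Level (log2 RMA intensity) of the 10 genes on each array, from left to right shTRIB1-1, shTRIB1-2 and shGFP, then spheroid and 2D after the grey line. Each point is 1 array, and all panels cover the same span of levels. ERN1, XBP1, ATF6, EIF2AK3 and CREB3 have their highest point on the spheroid array, and all of these but ATF6 have their lowest point on the 2D array.

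Spheroid and 2D culture were compared to see which messenger RNAs differ with growth in 3 dimensions. Messenger RNAs of IRE1, XBP1 and ATF6 were more than 2-fold higher in spheroid cells, and that of PERK was just under 2-fold higher. CREB3L1 and CREB3 had smaller positive differences, and those of ATF6B, WFS1, CREB3L2 and MBTPS1 were near 0. Of the 10 genes, 3 were at least 2-fold higher (ERN1, XBP1 and ATF6) and 0 were at least 2-fold lower. Over the 10570 genes that passed this filter in the comparison, 5.05% were 2-fold higher, 5.23% were 2-fold lower and 10.3% differed in either direction. The median difference of the 10 genes was 0.51, against -0.0083 over all genes, and 8 of 10 were above 0, against 47.3% of all genes. With 1 array a condition there is no test and no replicate check of these differences.

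ERN1, the IRE1 kinase, was at 9.17 on the spheroid array and at 7.38 on the 2D array. On the hairpin arrays it was at 8.60 (shTRIB1-1), 8.08 (shTRIB1-2) and 8.12 (shGFP). The spheroid array was thus the highest of the 5 and the 2D array the lowest. The difference of 1.79 between spheroid and 2D is 3.47-fold and lies above 98.6% of all genes. A second ERN1 probe set, 235745_at, gave a larger difference of 2.55, with 9.27 on the spheroid array and 6.71 on the 2D array. The remaining one, 207061_at, stayed between 4.91 and 5.01 on every array, below the level filter.

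XBP1, the transcription factor whose messenger RNA IRE1 splices, was at 9.75 on the spheroid array and 8.58 on the 2D array. The difference of 1.17 is 2.24-fold. Its levels were 9.41 on shTRIB1-1, 9.36 on shTRIB1-2 and 9.63 on shGFP. For XBP1 the 2D array therefore stood apart below all others, and the spheroid array lay only 0.12 above shGFP. The other XBP1 probe set, 242021_at, stayed between 4.54 and 4.87, below the filter, and was also lowest on the 2D array.

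ATF6 was at 10.12 on the spheroid array and 9.10 on the 2D array, a difference of 1.02. It was at 9.10 on shTRIB1-1, 9.28 on shTRIB1-2 and 9.44 on shGFP, so here the spheroid array was the one that stood apart. All 4 of its probe sets passed the filter. Probe sets 217550_at and 231927_at differed by 0.88 and 0.94 between spheroid and 2D, whereas 203952_at differed by 0.17, with 8.74 on the spheroid array and 8.57 on the 2D array. The probe sets of ATF6 hence disagree on the size of the difference, and the sources used here do not say which part of the transcript each covers.

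**Figure D2:**
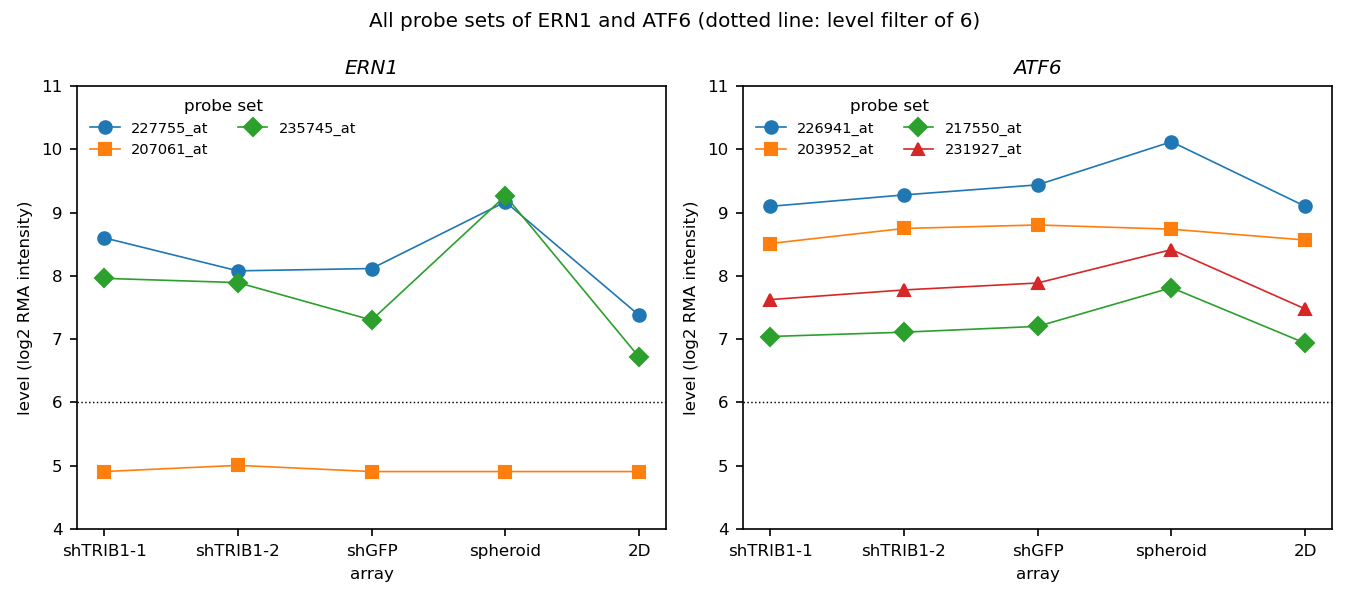
Level (log2 RMA intensity) of every single-symbol probe set of ERN1 (left) and ATF6 (right) on the 5 arrays, each line being 1 probe set and the dotted line the level filter of 6. Differences of at least 2-fold between spheroid and 2D appear for ERN1 probe sets 227755_at and 235745_at and for ATF6 probe set 226941_at, while 207061_at and 203952_at are nearly flat.

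EIF2AK3, the PERK kinase, was at 10.18 on the spheroid array and 9.20 on the 2D array, a difference of 0.97 that falls just under 2-fold. It was at 10.04 on shTRIB1-1, 9.82 on shTRIB1-2 and 9.73 on shGFP, so the 2D array was again the lowest. Its other probe set, 241463_at, stayed far below the filter on every array. Of the membrane-bound relatives, CREB3L1, known for its part in collagen secretion in bone of mice, was at 8.18 on the spheroid array and 7.64 on the 2D array, a difference of 0.53. CREB3 was at 8.80 on the spheroid array and 8.32 on the 2D array, a difference of 0.48, measured by its only probe set. Both differences are about the size of the root mean square difference between the 2 shTRIB1 arrays.

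For the remaining 4 genes the spheroid and 2D arrays were closer than the median gene was between the shTRIB1 arrays. ATF6B, the paralogue of ATF6, was at 6.78 on the spheroid array and 6.74 on the 2D array. Its other probe sets, 1554487_a_at and 216208_s_at, stayed below the filter on every array. KLK3, chosen as a gene that PC-3 lacks or holds low, was at 6.90 on every array. The level of ATF6B may therefore be near background, and its near equality does not show equal expression. WFS1 was at 7.58 on the spheroid array and 7.56 on the 2D array, and its second probe set differed by -0.02. CREB3L2, a factor for secretory cargo in mouse cartilage, was at 9.25 on the spheroid array and 9.37 on the 2D array. Its second probe set above the filter, 228759_at, differed the other way, by 0.19. The protease MBTPS1 was at 8.41 on the spheroid array and 8.42 on the 2D array, and its other probe set differed by -0.0061. MBTPS1 and WFS1, the members that process or limit ATF6, thus had nearly equal messenger RNA levels on the spheroid and 2D arrays. ATF6 itself was higher on the spheroid array by most of its probe sets, though little by 203952_at (0.17).

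How much of this depends on the 2D array was examined by setting the spheroid array against shGFP as well. ERN1 remained 2-fold higher, by 1.05, and was the only member to pass that size, against 9.36% of 10556 genes in either direction and 4.77% for higher alone. ATF6 differed by 0.68, EIF2AK3 by 0.45, XBP1 by 0.12 and CREB3L2 by -0.78. The size for CREB3L2 depends on the probe set, since 228759_at differed by -0.15. ERN1 and ATF6 were the members at least 0.5 above both the 2D and the shGFP array, a pattern that 8.81% of 10843 genes showed. For ATF6 this depends on the probe set. Against shGFP, 217550_at and 231927_at differed by 0.61 and 0.53, but 203952_at by -0.067. The median of the 10 genes was 0.096 against shGFP, and 6 of 10 were above 0, against 45.1% of genes. The comparison with shGFP crosses from non-hairpin to hairpin arrays, so the hairpin, its delivery and the difference in actin ratio cannot be told apart in it.

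The shGFP array was higher than the 2D array for all 10 genes, against 48.9% of 10450 genes. XBP1 was the member past 2-fold, with a difference of 1.05, against 2.13% of genes 2-fold higher and 4.25% in either direction. ERN1 differed by 0.74, CREB3L2 by 0.66, EIF2AK3 by 0.53, CREB3 and CREB3L1 by 0.40 each, ATF6 by 0.34, MBTPS1 by 0.24, WFS1 by 0.21 and ATF6B by 0.04. The median was 0.40 for the 10 genes and 0 over all genes. The differences of spheroid and of shGFP from 2D share the 2D array, so a low 2D value would appear in both. The 2D array was strictly the lowest of the 5 for 5 of the 10 genes (ERN1, XBP1, EIF2AK3, WFS1 and CREB3), against 21% of 10843 genes.

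Some markers of other cell types also differed on the spheroid array. Of 7 measured markers of blood, endothelium and fibroblasts, 2 reached a level of 6 on the spheroid array and 2 on the 2D array. Their summed level was 38.9 on the spheroid array, against 34.6 on the 2D array and 34.7 on the shGFP array. PECAM1 was at 9.53 on the spheroid array and 7.57 on the 2D array. COL3A1 was at 5.80 on the spheroid array and 3.82 on the 2D array, below the filter on both. HBB was at 6.15 on both arrays. The fibroblast markers DCN (5.78 on spheroid, 5.53 on 2D) and LUM (2.91 on spheroid, 2.71 on 2D) differed little and were below the filter. The leukocyte marker PTPRC (3.61 on spheroid, 3.64 on 2D) and the endothelial VWF (5.08 on spheroid, 5.21 on 2D) were below the filter on both. Their part in the differences of the 10 genes was not tested. In RNA from a whole culture, more cells with a transcript and more transcript per cell cannot be told apart.

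The study set the TRIB1 hairpins against shGFP to find genes that depend on TRIB1. Since TRIB1 messenger RNA was not clearly lower on these arrays, the values below compare the labelled arrays and do not show dependence on TRIB1. No member differed by 2-fold on shTRIB1-1 (against 3.86% of 10522 genes), on shTRIB1-2 (2.16%) or on both in the same direction (0.447%). The median over the 10 genes was 0.085 for the mean of the hairpins and -0.027 over all genes. Limma, fitted on all 10522 genes, called 0 of the 10 genes, with adjusted p between 0.951 and 1.00, and 0% of genes in all. At an unadjusted p under 0.05 it held 0 of the 10 genes and 356 genes in all, 3.38%. The fit has 1 residual degree of freedom, from the difference between the 2 hairpin arrays, and a p that misses the threshold does not show equal levels.

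The IRE1 branch comes first. ERN1 differed from shGFP by 0.49 on shTRIB1-1 and -0.04 on shTRIB1-2, a mean of 0.22 ± 0.37 (SD, n = 2). The second ERN1 probe set, 235745_at, was at 7.96 on shTRIB1-1 and 7.89 on shTRIB1-2, against 7.30 on shGFP, and so differed by 0.66 and 0.59. For ERN1 the outcome on shTRIB1-2 thus depends on the probe set. XBP1 differed by -0.22 on shTRIB1-1 and -0.28 on shTRIB1-2, a mean of -0.25 ± 0.037. Both hairpin arrays were below shGFP for XBP1, yet both were above the 2D array, by a mean of 0.80.

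ATF6 differed from shGFP by -0.34 on shTRIB1-1 and -0.16 on shTRIB1-2, a mean of -0.25 ± 0.13 (SD, n = 2), and all 4 of its probe sets were below shGFP on both hairpin arrays. Against the 2D array the mean of ATF6 was higher by 0.09. ATF6B was at 6.72 on shTRIB1-1 and 7.05 on shTRIB1-2, against 6.78 on shGFP, so that the hairpins lay on either side. EIF2AK3 differed by 0.31 and 0.09, a mean of 0.20 ± 0.15. The PERK sensor was thus slightly higher on both arrays, by less than the root mean square difference between the hairpin arrays.

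MBTPS1 was at 8.92 on shTRIB1-1 and 9.003 on shTRIB1-2, against 8.66 on shGFP, a mean difference of 0.30 ± 0.058 (SD, n = 2). Its second probe set, 217543_s_at, differed by 0.31 and 0.23. Both probe sets of the protease were therefore higher on both hairpin arrays. WFS1 differed by 0.11 and 0.44, a mean of 0.27 ± 0.23. Its second probe set, 1555270_a_at, differed by 0 on shTRIB1-1 and by 0.19 on shTRIB1-2. Whether WFS1 was above shGFP on both hairpin arrays thus depends on the probe set. CREB3L2 was at 9.72 and 9.70, against 10.03 on shGFP, a mean difference of -0.32 ± 0.017, and its second probe set above the filter, 228759_at, differed by -0.10 and -0.15. Against the 2D array the mean of CREB3L2 was higher by 0.34. CREB3 differed by 0.04 on shTRIB1-1 and -0.0087 on shTRIB1-2. In all, 3 members were above shGFP on both hairpin arrays (EIF2AK3, WFS1 and MBTPS1, against 25% of genes) and 3 were below it on both (XBP1, ATF6 and CREB3L2, against 34.7%). These shares are close to those of all genes.

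CREB3L1 separated the 2 hairpins. It was at 7.19 on shTRIB1-1 and 9.03 on shTRIB1-2, against 8.05 on shGFP, differences of -0.86 and 0.99. The 2 hairpin arrays held the lowest and the highest level of CREB3L1 among all 5 arrays, 1.85 apart, and their mean difference from shGFP was 0.064 ± 1.31 (SD, n = 2). A difference of 2-fold or more between the hairpin arrays was found for 1 member and for 5.06% of genes. CREB3L1 was also the member with opposite differences of at least 0.5 in size, as 1.09% of genes were. The result rests on probe set 213059_at, since the other, 213498_at, stayed between 4.72 and 4.90.

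**Figure D3:**
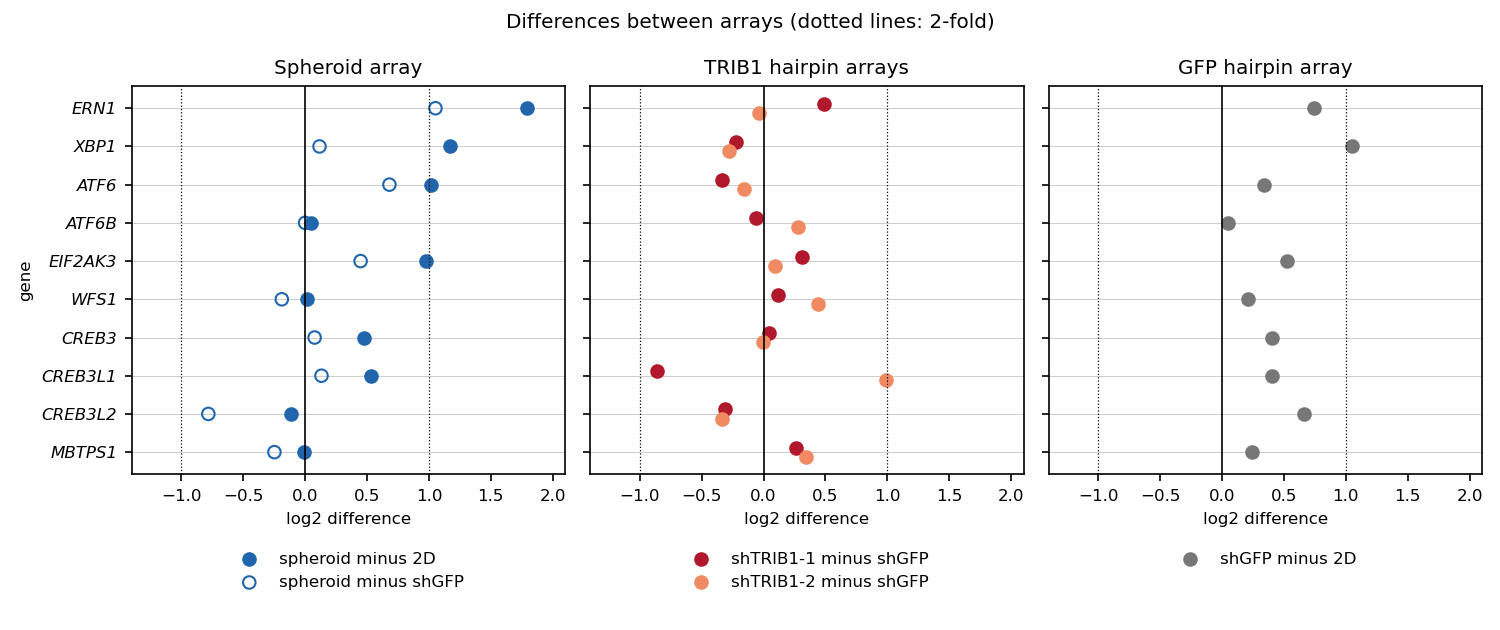
Log2 difference between arrays for each of the 10 genes, with dotted lines at 2-fold. Left, spheroid minus 2D (filled) and spheroid minus shGFP (open). Middle, each shTRIB1 array minus shGFP. Right, shGFP minus 2D. ERN1 lies past 2-fold against both 2D and shGFP, XBP1 only against 2D, the hairpin points lie apart for CREB3L1, and all 10 points are above 0 for shGFP minus 2D.

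Known targets and partners of these factors were described from 6 lists that hold 65 other genes, of which 61 had a probe set. The 13 measured targets of XBP1, which act in folding, translocation and export, were all higher on the spheroid array than in 2D (against 47.3% of all genes), by a median of 0.26, and 1 was 2-fold higher (against 5.05%). That gene was DNAJB9, an ER co-chaperone that restrains IRE1, at 9.95 on the spheroid array and 8.62 on the 2D array. DNAJC3, an inhibitor of PERK, differed by 0.87, and the coat proteins SEC24D and SEC31A of ER export by 0.73 and 0.66. All 13 were also higher on shGFP than on 2D (against 48.9%), with DNAJB9 at 10.75 on shGFP, and against shGFP the median of the spheroid array was -0.039. The targets of XBP1 thus stood lower on the 2D array than on the spheroid and shGFP arrays, as XBP1 itself did, but some only slightly. Between spheroid and 2D, SEC61A1, HSPA13 and SEC61B differed by 0.026, 0.055 and 0.085, and EDEM1 by 0.019 between shGFP and 2D. These values are below the median absolute difference of 0.202 between the shTRIB1 arrays. On the hairpin arrays 10 of 13 were below shGFP on both (against 34.7% of all genes) and 1 was above on both (25%), with medians of -0.040 on shTRIB1-1 and -0.29 on shTRIB1-2. DNAJB11, a co-chaperone of BiP, differed by -0.52 and -0.75, DNAJB9 by -0.24 and -0.60, DNAJC3 by -0.17 and -0.54 and SERP1, a stabiliser of the translocon, by -0.31 and -0.29. Limma called 0 of the 13 and held 0 at an unadjusted p under 0.05.

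The 11 targets of ATF6 above the filter are mainly chaperones and degradation factors. Of these, 5 were higher and 6 lower on the spheroid array than in 2D, against 47.3% of all genes higher. The median of the 11 was -0.062. HERPUD1, a factor of ER-associated degradation, was higher by 1.11, its ligase partner SEL1L by 0.85 and the chaperone HSPA5 (BiP) by 0.66, while the isomerase PDIA6 differed by -0.59. ATF6 messenger RNA was higher on that array without a shared direction among these genes. On the 2 hairpin arrays all 11 were below shGFP (against 34.7% of all genes), with medians of -0.74 on shTRIB1-1 and -0.84 on shTRIB1-2. SDF2L1 differed by -0.91 and -1.59, HERPUD1 by -0.88 and -1.16, PDIA4 by -0.78 and -0.95 and CRELD2 by -0.87 and -0.84. Limma called 0 of the 11, each at an adjusted p of 0.951, and held 8 of the 11 at an unadjusted p under 0.05, against 3.38% of all genes. The same 11 genes were all higher on shGFP than on 2D (against 48.9% of all genes), with a median of 0.85, and against 2D the hairpin median was -0.024. The shGFP array is shared by both of these comparisons.

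In the PERK and ATF4 branch, 10 of 12 genes were higher on the spheroid array than in 2D (against 47.3% of all genes) and the median was 0.86. The 4 genes past 2-fold, against 5.05% of all genes, were DDIT3 (CHOP), a factor that can promote cell death, at 2.14, the stress factor ATF3 at 1.97, DDIT4, an inhibitor of mTORC1, at 1.17, and NUPR1 at 1.08. ATF4 itself was at 12.31 on the spheroid array and 11.75 on the 2D array. On the hairpin arrays 9 of 12 were below shGFP on both (against 34.7% of all genes) and 1 was above on both (25%), with medians of -0.33 and -0.36. CHAC1, a glutathione-degrading enzyme, differed by -1.33 and -1.05, TRIB3 by -1.09 and -0.72, DDIT3 by -0.47 and -0.92 and the asparagine synthetase ASNS by -0.91 and -0.47. Limma called 0 of the 12 and held 2 at an unadjusted p under 0.05, against 3.38% of all genes. Of these 12 genes, 11 were higher on shGFP than on 2D (against 48.9% of all genes) and 8 were 2-fold higher (2.13%). With 2D and shGFP swapped as reference the medians turned sign, to -0.18 for spheroid minus shGFP and 0.71 for the hairpins minus 2D.

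Partners and paralogues of the sensors formed the fourth list. Of 12 genes above the filter, 2 were higher (against 47.3% of all genes) and 10 lower on the spheroid array, with a median of -0.042. MAP3K5 (ASK1), a kinase downstream of IRE1, was at 9.82 on the spheroid array and 8.22 on the 2D array, a difference of 1.59, and it was at 9.002 and 8.97 on shTRIB1-1 and shTRIB1-2, against 8.39 on shGFP. CREB3L4, a prostate-enriched member of the CREB3 family, was lower by 0.61 on the spheroid array. On the hairpin arrays it was at 6.83 and 7.18, against 7.83 on shGFP. NFYA, a subunit of NF-Y, was at 7.34 on shTRIB1-1 and 9.47 on shTRIB1-2, against 8.89 on shGFP, so it lay on opposite sides of shGFP as CREB3L1 did. The site-2 protease MBTPS2 differed by -0.09 and -0.55 on the hairpin arrays and by -0.047 between spheroid and 2D. IRE1 beta (ERN2), a paralogue of the gut, stayed between 6.88 and 6.91 on all arrays.

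**Figure D4:**
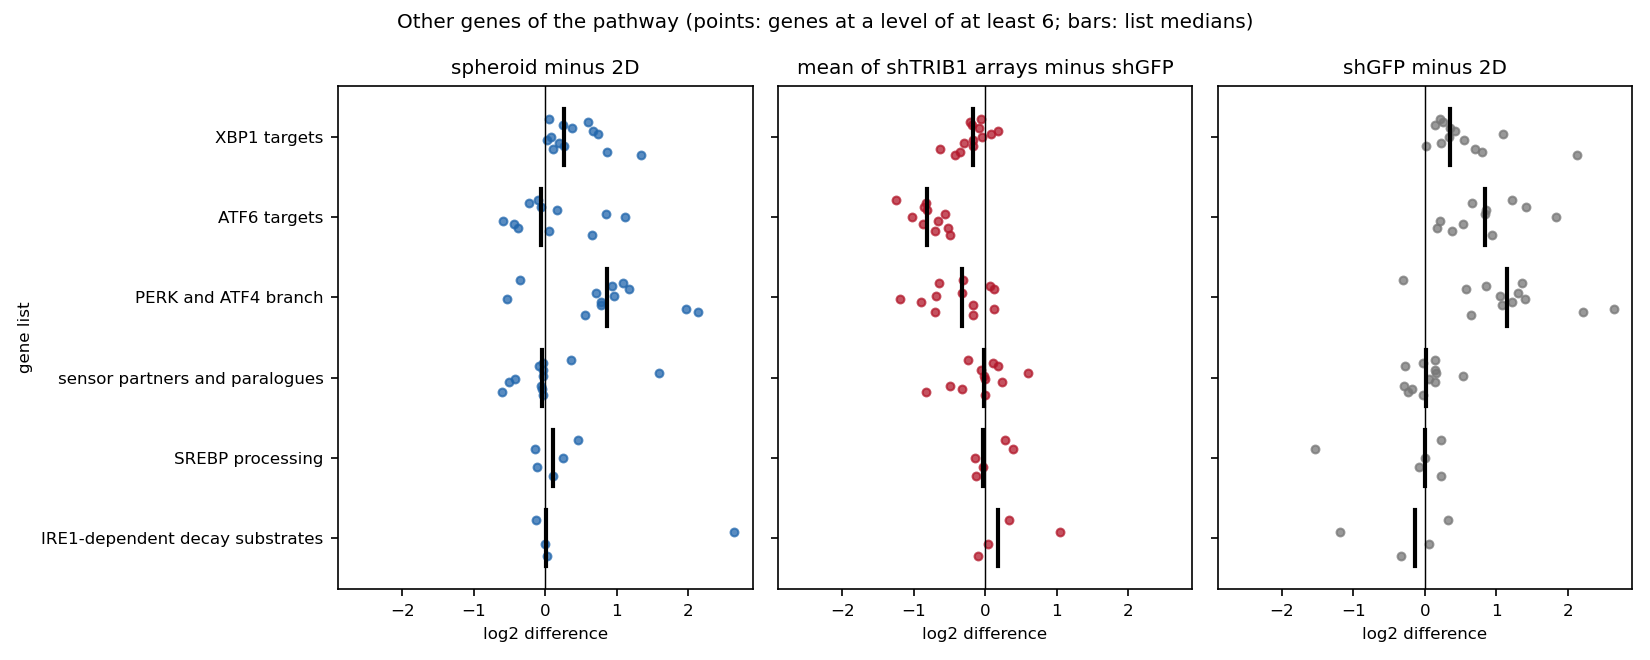
Log2 difference of each gene of the 6 lists that reached a level of 6 on a compared array (points) and the median of each list (bars), for spheroid minus 2D (left), the mean of the shTRIB1 arrays minus shGFP (middle) and shGFP minus 2D (right). The targets of ATF6 lie below 0 in the middle panel and above 0 in the right panel, around medians of -0.81 and 0.85.

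The genes whose profile over the 5 arrays was closest to that of 3 members were found among 10833 other genes by the Euclidean distance of levels centred on each gene's mean. Closest to XBP1 were MRNIP-DT (distance 0.113), FNIP1 (0.236) and PPM1H (0.247). Closest to ERN1 were C22orf39 (0.107), BICDL1 (0.206) and SPIRE1 (0.253). Closest to ATF6 were PICART1 (0.175), RPAIN (0.178) and TAOK3 (0.193). PICART1 stayed below 6 on all arrays but that of the spheroids. With 5 points and this many candidates, close profiles are to be found for many genes, and the values describe these arrays only.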

How the data were processed

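RNA of 5 PC-3 cultures was measured on Affymetrix arrays after biotin labelling of cRNA from 100 ng of total RNA, per the labels' protocols. The deposited values are probe set intensities that the authors made with RMA, per the submitters' processing notes. They lie on a linear scale, as read from the values. The sources used here do not give the RMA version, the chip definition file or the return to a linear scale. RMA equalises the distributions of the arrays, so a change of most genes in 1 direction would be hidden. Median intensity per array lay between 32.97 and 33.36. Precision is limited by how few arrays there are.

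Log2 was taken with no pseudocount. Of 54675 probe sets, 41097 carried 1 symbol in the platform annotation. For each of 19775 genes the probe set of highest mean level was used, and the gene entered a comparison at a level of at least 6 (intensity 64) on a compared array. Hairpin arrays were tested with limma 3.58.1 (R 4.3.3, intensity trend, Benjamini-Hochberg adjustment over all genes, threshold 0.05), checked on simulated data. In the main fit, a p-value rests on the spread between the 2 shTRIB1 arrays, which limma moderates over all genes. The single shGFP array adds no spread, so variation between shGFP cultures or arrays is not measured. The spread between the shTRIB1 arrays may be technical or come from the different hairpins. Spheroid, 2D and shGFP have 1 array each, so differences between them have no test. The named genes were all 10 members, up to 4 genes with the largest difference per list and comparison, and 3 genes of closest profile for XBP1, ERN1 and ATF6. ATF4 and ERN2 were chosen after their values were seen, as were SEC61A1, HSPA13, SEC61B and EDEM1, named for small differences. The members, lists and rules were chosen with earlier results of these data known. Alternatives were the probe set choice, level filter, a pseudocount of 16, array centring, reference array, limma settings and leaving out a hairpin. Swapped reference arrays, and alternatives for list medians, were added after seeing the data.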

Additional observations from a re-analysis of the deposited data

How the results depend on the processing

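The reference array and the choice of probe set both moved results. Of the 10 genes, 3 were 2-fold different between spheroid and 2D, against 10.3% of all genes. With shGFP as reference 1 was (ERN1), against 9.36%, so that count is near the share of all genes. The count was also 1 with the mean of 2D and shGFP as reference (ERN1), and 1 of 9 with the median level over a gene's probe sets. For these last alternatives the share of all genes was not computed. The member median of 0.51 became 0.31 against the mean of 2D and shGFP, 0.096 against shGFP and 0.75 at a level of at least 8, where fewer genes remain. The hairpin median of 0.085 became 0.27 against that mean and 0.47 against 2D. It was 0.043 and -0.011 with either hairpin array left out. No member was 2-fold different on both hairpin arrays, and limma called 0 members, under any alternative run. In the main analysis 0.447% of all genes were 2-fold different on both. Limma called 0 of all genes under each of its settings, so its count of 0 is not particular to the members. The smallest adjusted p among members lay between 0.617 and 0.998 over these settings. ERN1 reached an unadjusted p under 0.05 as the median of its probe sets and for 235745_at. XBP1 differed from the reference by 0.28 (mean of both arrays) or 0.80 (2D) in place of -0.25 on the hairpin arrays.

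With the mean of 2D and shGFP as reference, the spheroid medians were -0.47 for targets of ATF6 and 0.33 for the PERK and ATF4 branch, and the hairpin medians were -0.44 for targets of ATF6, 0.24 for the PERK and ATF4 branch and 0.051 for targets of XBP1. With 2D and shGFP swapped, the spheroid medians were -0.73, -0.18 and -0.039 for targets of ATF6, the PERK and ATF4 branch and targets of XBP1. The swapped hairpin medians were -0.024, 0.71 and 0.26 for the same lists and -0.016 for IRE1-dependent decay substrates. As the median over probe sets, the PERK and ATF4 branch was at -0.22 on the hairpin arrays and the decay substrates at 1.54 on the spheroid array, from the 2 genes that then pass the level filter, against 0.0095 from 4. The cause of the other moves was not tested. No paired analysis was possible because the 2 numbers in the labels name different hairpins and the other groups have 1 array each. CREB3 has no value without _s_at and _x_at probe sets.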

Other observations

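MBTPS1 also cuts the SREBP factors of sterol synthesis, and 5 genes of that step were measured. Between spheroid and 2D they had a median of 0.11 and 0 were 2-fold different, against 10.3% of all genes. INSIG2, which retains SREBP in the ER, was at 9.34 on the spheroid array and 8.89 on the 2D array, and SCAP, the escort of SREBP, at 8.43 on the spheroid array and 8.18 on the 2D array. INSIG1, a sterol-responsive relative of INSIG2, differed between sets of arrays. It was at 9.71 on shGFP, against 11.25 on the 2D array, a difference of -1.53, and at 10.45 and 9.77 on shTRIB1-1 and shTRIB1-2. Of the 5 genes, 3 were higher (against 48.9% of all genes) and 2 lower on shGFP than on 2D, with a median of 0.0092.

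The ribonuclease of IRE1 degrades some messenger RNAs, and 4 of 6 listed substrates passed the level filter. BLOC1S1, the best known of them, was at 7.60 on the spheroid array and 7.58 on the 2D array. COL6A1 was at 8.98 on the spheroid array and 8.98 on the 2D array. SPARC, a matrix protein, was higher on the spheroid array, at 11.14, against 8.50 on the 2D array. It also separated the hairpins, at 7.42 on shTRIB1-1 and 9.29 on shTRIB1-2, against 7.31 on shGFP. HGSNAT, a lysosomal enzyme, was at 7.67 on shTRIB1-1 and 6.52 on shTRIB1-2, against 6.77 on shGFP.

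A probe set shared by TNXB and ATF6B, which entered no comparison, lay between 4.99 and 5.92 on the 5 arrays, below the level filter.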
